A study of Homo sapiens with 2 samples.

Results

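The 10 genes of the myeloma cell surface described here are TNFRSF17, TNFRSF13B, CD27, SLAMF7, FCRL5, CD28, NCAM1, CD38, SDC1 and GPRC5D. These 10 genes were chosen by name among the 57485 genes of the deposited tables, and all 10 were listed there. RNA was sequenced from ARP1 cells, a human multiple myeloma (MM) cell line that carries a doxycycline (Dox)-inducible lentiviral hairpin against SRD5A1, a steroid 5α-reductase. One library was labelled untreated and 1 was labelled as treated with Dox, both from hairpin-carrying cells. There was thus no replicate of either condition, no library of Dox-treated cells without the hairpin, and no second cell line. The effects of Dox and of the hairpin cannot be told apart here, and no difference has a replicate check.

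For the Dox library the genotype field named SRD5A2, whereas its title and the series design named SRD5A1, and the sources used here tie no dose or duration of Dox to these libraries. SRD5A1 itself was listed at 13.04 FPKM (fragment counts scaled by transcript length and library size) without Dox and 25.88 FPKM with Dox, a log2 ratio of 0.98 (95% counting interval 0.89 to 1.08). RNA of the targeted gene thus stood higher, not lower, under the Dox label, so every direction given here is that of the labels alone. The libraries held 45918570 and 48728927 expected counts, at which 3 counts equal 0.065 and 0.062 CPM (counts scaled by library size). All 10 plasma cell markers, a list that holds 3 of the genes described here beside IRF4, PRDM1, XBP1 and JCHAIN, were at 20.03 FPKM or more in both libraries. By contrast, 1 of 8 T cell markers, 1 of 6 NK cell markers, 1 of 6 myeloid markers and 3 of 6 B cell markers reached 1 FPKM in either library. CD3D, CD3G and CD2 of the T cell list, NCR1, KLRF1 and NKG7 of the NK cell list, and CD22 of the B cell list were listed at 0 in both. The B cell markers that reached 1 FPKM were CIITA (10.97 without and 18.50 FPKM with Dox), BCL6 (0.49 and 4.51) and PAX5 (1.32 and 0.79). Those of the other lists were CD247 for T cells (1.33 and 0.08 FPKM), GNLY for NK cells (1.12 and 1.12) and CD33 for myeloid cells (2.07 and 1.82). The summed levels without and with Dox were 1.80 and 0.43 FPKM for the T cell list, 1.36 and 1.55 FPKM for the NK cell list, 2.59 and 2.84 FPKM for the myeloid list, and 12.88 and 24.07 FPKM for the B cell list. The part of these markers in the results was not tested. In bulk RNA, fewer cells with a transcript and less of it per cell cannot be told apart.

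These surface proteins mark plasma cells or serve as targets of antibodies and engineered T cells in MM. TNFRSF17 encodes BCMA, a receptor of the TNF receptor family that binds the ligands APRIL and BAFF and supports the survival of long-lived plasma cells. SLAMF7, CD38, GPRC5D and FCRL5 are likewise therapy targets, SDC1 encodes syndecan-1 (CD138), the classical plasma cell surface marker, and CD28 and NCAM1 (CD56) are found on a share of myelomas. CD27, a receptor of memory B cells and normal plasma cells, is often lost in MM.

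In both libraries SDC1, GPRC5D and TNFRSF17 had the 3 highest FPKM of the 10 genes. TNFRSF17, SLAMF7, FCRL5 and NCAM1 were more than 2-fold higher in the library labelled with Dox, and SDC1 was lower by less than 2-fold. With the deposited FPKM, CD38 and GPRC5D differed by less than their counting error, which did not hold with every other scaling tried. A log2 ratio here sets the library with Dox over the one without, after adding a pseudocount of 0.1 to each FPKM, and this addition pulls the ratios of low genes toward 0. A gene was compared, or tested, when it reached 1 FPKM in either library, which 9 of the 10 genes did, CD27 being the exception. This comparison of libraries yields no p-value. Among these 9, 4 were more than 2-fold higher (44.4%) and 0 were lower, and the median log2 ratio was 0.24. Over all 14859 genes that reached 1 FPKM, 17.0% were more than 2-fold higher, 6.41% were more than 2-fold lower, and the median was 0.15. The 10 genes were chosen with earlier results of these data known, so these shares are no independent comparison. FCRL5 and NCAM1 passed the 1 FPKM minimum only through the library labelled with Dox, where they were higher. With the TMM factors of edgeR, all ratios moved down, the median of all tested genes by 0.21, and 3 of the 9 genes were more than 2-fold higher. The split of all tested genes, 2521 higher and 953 lower, became 1928 and 1546 with these factors. All counting intervals were exact and cover counting error only.

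**Figure D1:**
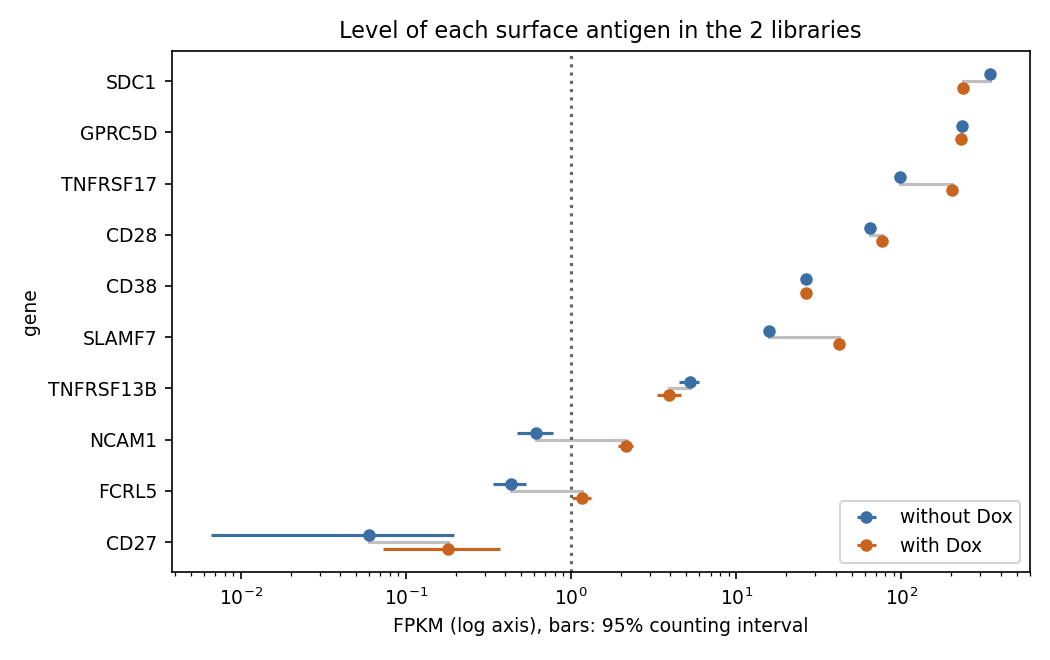
FPKM on a log axis for the 10 surface antigens in the library without Dox (blue) and with Dox (orange), with 95% exact Poisson counting intervals as bars, a grey line joining the libraries and a dotted line at 1 FPKM. SDC1, GPRC5D and TNFRSF17 lie farthest to the right in both libraries, and FCRL5 and NCAM1 cross the line.

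Without Dox the order of levels per length was SDC1, GPRC5D, TNFRSF17, CD28, CD38, SLAMF7, TNFRSF13B, NCAM1, FCRL5 and CD27. With Dox the order differed only in SLAMF7, which stood above CD38. Counting error left 2 pairs of neighbours in this order unresolved. With Dox, the interval of SDC1 (233 to 240 FPKM) overlapped that of GPRC5D (223 to 237 FPKM), and without Dox, the interval of NCAM1 (0.47 to 0.78 FPKM) overlapped that of FCRL5 (0.34 to 0.53 FPKM). The summed FPKM of the 10 genes was 788 without Dox and 823 with Dox. Within that sum, the share of SDC1 was 43.7% and then 28.8%, while the share of TNFRSF17 was 12.4% and then 24.8%. The FPKM of TNFRSF17 over that of SDC1 was 0.284 without Dox and 0.861 with Dox, a comparison within each library that does not depend on the scaling between libraries.

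The TNF receptor family members were TNFRSF17, TNFRSF13B and CD27. TNFRSF17 (ENSG00000048462.10) occupies positions 11965107 to 11968068 of chromosome 16, forward strand, in GRCh38, the build of the GENCODE release 29 annotation used for all genes here. It was listed with 3318 counts and 97.72 FPKM without Dox and 7332 counts and 203.73 FPKM with Dox. The log2 ratio was 1.06 (counting interval 1.0 to 1.12), and 84.2% of the tested genes had a lower one. This value lay close to the 2-fold line, which its lower counting bound met, and it fell below it with the TMM factors (0.84) and with the size factors of DESeq2 (0.85). The whole of TNFRSF17 lies inside a gene of the opposite strand, named RP11-166B2.1 in the tables and NPIPB2 in GENCODE, which was listed with 330 and 556 counts. Whether the counting used the strand of the reads is not given in the sources used here, so reads of the 2 genes may have been exchanged.

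TNFRSF13B (ENSG00000240505.8, reverse strand of chromosome 17 from 16929816 to 16972118) encodes TACI, the other receptor of plasma cells for APRIL and BAFF. It was listed with 212 counts and 5.22 FPKM without Dox and 151 counts and 3.94 FPKM with Dox. The log2 ratio of -0.40 (counting interval -0.70 to -0.09) was below 2-fold and opposite in sign to that of TNFRSF17. TNFRSF13B overlaps the pseudogene TBC1D27P on the same strand over 5024 bases, listed with 122 and 102 counts, and its own counts were not whole before rounding, as occurs when reads are shared between transcripts.

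CD27 (ENSG00000139193.3, chromosome 12 from 6444867 to 6451718) was listed with 2 counts and 0.06 FPKM without Dox and 7 counts and 0.18 FPKM with Dox. It was at the bottom of the order in both libraries, and its log2 ratio of 0.81 had a counting interval of -0.36 to 1.60, so no difference was detectable at this depth. The mean transcript length listed, 1045 bases in both libraries, equals that of its noncoding transcript and not the 1338 bases of the coding one. CD27-AS1, a transcript of the opposite strand that overlaps CD27 over 6701 bases, was listed with 200 and 491 counts.

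SLAMF7, FCRL5, CD28 and NCAM1 belong to the immunoglobulin superfamily. SLAMF7 (ENSG00000026751.16), a self-binding receptor of the SLAM family, occupies positions 160739057 to 160754821 of chromosome 1, forward strand. It was listed with 1745 counts and 15.73 FPKM without Dox and 4636 counts and 41.75 FPKM with Dox. The log2 ratio was 1.40 (counting interval 1.32 to 1.48), with 90.1% of the tested genes below it. Of the 4 genes past 2-fold it alone stayed past 2-fold in 7 of 7 other settings of pseudocount, unit, scaling and length, from 1.19 to 1.50.

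FCRL5 (ENSG00000143297.18, reverse strand of chromosome 1 from 157513377 to 157552520) encodes an Fc receptor-like protein of the B cell lineage. FCRL5 had 75 counts and 0.43 FPKM without Dox and 233 counts and 1.16 FPKM with Dox. The log2 ratio of 1.25 (counting interval 0.93 to 1.58) fell to 0.60 with a pseudocount of 1 FPKM, since the levels are low. NCAM1 (ENSG00000149294.16, chromosome 11 from 112961247 to 113278436), the neural cell adhesion molecule, went from 64 counts and 0.61 FPKM to 378 counts and 2.15 FPKM, a log2 ratio of 1.66 (counting interval 1.33 to 2.01). This was the largest ratio among the 10 genes, although its level remained under 3 FPKM. The mean NCAM1 transcript length listed was 2534 bases without Dox and 3855 bases with Dox, so part of the difference in counts was taken up by the length term. On the CPM scale, without the length term, NCAM1 had a log2 ratio of 2.40, and with a pseudocount of 1 FPKM it had 0.97. The 30 NCAM1 transcripts of the tables range from 502 to 6045 bases, and a mean length does not tell which of them were counted.

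CD28 (ENSG00000178562.17, chromosome 2 from 203706475 to 203738912) encodes the costimulatory receptor of T cells, which binds CD80 and CD86 of neighbouring cells. The tables gave it 8559 counts and 64.64 FPKM without Dox and 12477 counts and 76.54 FPKM with Dox. Its log2 ratio of 0.24 (counting interval 0.20 to 0.28) stood near the median of 0.15 over all tested genes, and with the TMM factors it was 0.03. The mean CD28 transcript length was 3127 bases without Dox and 3591 bases with Dox, which puts the share of the 705-base transcript, the shortest of 3, between 36.6% and 41.0% without Dox and between 24.5% and 29.7% with Dox. On the CPM scale the ratio was 0.46. Of the T cell markers, CD3D, CD3G and CD2 were at 0 in both libraries, while CD247 had 61 counts without Dox and 6 with Dox, CD3E 17 and 12, CD4 9 and 4, CD8A 4 and 9, and CD5 0 and 3.

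CD38, an ectoenzyme that degrades NAD, and BST1, its relative, differed widely in level. CD38 (ENSG00000004468.12, chromosome 4 from 15778275 to 15853230) was listed with 4546 counts and 26.62 FPKM without Dox and 5289 counts and 26.61 FPKM with Dox. The log2 ratio was -0.00054 (counting interval -0.06 to 0.06), and over 7 other settings it ranged from -0.22 with the TMM factors to 0.13 with a fixed length, so its sign depends on the scaling. BST1, with 17 and 16 counts, did not reach 1 FPKM in either library.

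The stretches of 250 bases before the RefSeq start of CD38 and CD28 are shown because both held GGAANNGAA, letters of the composite element bound by ETS factors together with IRF4, itself at 410 FPKM without Dox and 514 FPKM with Dox. The sequences are those of RefSeq on GRCh38.p14, forward strand, 5′ to 3′, and the capitals mark the match. CD38 is given for chr4:15778078-15778327 and CD28 for chr2:203706389-203706638. The RefSeq starts lie downstream of the GENCODE starts given here, so the last 53 bases of the CD38 window and the last 164 of the CD28 window lie inside the GENCODE gene.
CD38: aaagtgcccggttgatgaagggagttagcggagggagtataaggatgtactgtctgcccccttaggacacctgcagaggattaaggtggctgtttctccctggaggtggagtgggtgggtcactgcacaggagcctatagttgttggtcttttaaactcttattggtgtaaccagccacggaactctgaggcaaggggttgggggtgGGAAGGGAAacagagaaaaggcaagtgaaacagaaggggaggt
CD28: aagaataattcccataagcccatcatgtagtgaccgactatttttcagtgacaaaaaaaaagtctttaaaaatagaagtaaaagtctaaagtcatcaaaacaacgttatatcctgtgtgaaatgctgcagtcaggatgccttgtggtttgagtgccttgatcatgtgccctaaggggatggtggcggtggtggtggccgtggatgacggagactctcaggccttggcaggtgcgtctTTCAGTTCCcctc
The match reads along the gene in CD38, with 34 bases between it and the RefSeq start, and on the opposite strand in CD28, with 4 bases between them. Both matches lie inside the GENCODE genes, their last bases 18 and 159 bases after the GENCODE starts. Of the 35116 promoter windows of this length in RefSeq, 6.58% held the motif on either strand. Windows were matched for 7 of the 10 genes, namely CD38, SDC1, GPRC5D, FCRL5, TNFRSF13B, CD27 and CD28. These genes had 8 windows in all, and a gene was counted if any of its windows held the motif. The background shares count single windows instead. For TNFRSF17, SLAMF7 and NCAM1 no window was analysed here. The E-box CAGGTG was held by 5 of these 7 genes (CD27, CD28, CD38, SDC1 and TNFRSF13B) and by 17.5% of all windows. The motif AAGTGAAA was found in CD38 and in 1.37% of all windows, and GAAANNGAA in CD38, GPRC5D and 6.88% of all windows. The motifs TGATGNAA (3.14% of all windows), TTCNNGAA (6.62%), TGACGTGG (0.612%) and GGGACTTTC (0.325%) were found in 0 of the 7 genes. All 8 motifs were chosen after values were seen and searched on both strands, matches of different motifs may overlap, and a match is a run of letters rather than a shown binding site.

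SDC1 (ENSG00000115884.10, reverse strand of chromosome 2 from 20200797 to 20225433) encodes the heparan sulfate proteoglycan syndecan-1. SDC1 had 28397 counts and 344.56 FPKM without Dox and 22031 counts and 236.58 FPKM with Dox. The log2 ratio of -0.54 (counting interval -0.57 to -0.52) was the lowest of the 10 genes on this scale, although the interval of TNFRSF13B covers it and TNFRSF13B was lower on the CPM scale (-0.56 beside -0.45). Of the tested genes, 16.7% had a lower ratio than SDC1. Its own ratio was below 0 in 7 of 7 other settings, from -0.76 to -0.45, and past 2-fold in 0 of them.

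GPRC5D (ENSG00000111291.8, reverse strand of chromosome 12 from 12940775 to 12952147) encodes an orphan G protein-coupled receptor. Its values were 3747 counts and 232.06 FPKM without Dox and 4053 counts and 230.12 FPKM with Dox. The log2 ratio was -0.01 (counting interval -0.08 to 0.05), and it ranged from -0.23 to 0.08 over 7 other settings, so it too has no fixed sign. The high FPKM of GPRC5D rests on a short mean length of 594 and 607 bases. For such means, 67.8% to 75.2% of the GPRC5D molecules without Dox and 65.1% to 73.1% with Dox have to be assigned to the 448-base transcript, the shortest of 3.

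When counts were divided by the effective length of the longest coding transcript, a choice made after seeing the data, GPRC5D was at 103 and 105 FPKM. On the same scale SDC1 was at 203 and 148 FPKM, and TNFRSF17 at 96.2 and 201 FPKM. The gene with the highest level with Dox was then TNFRSF17 and not SDC1. The order of the top 3 genes thus depends on the transcript lengths assumed, whereas TNFRSF17, with 994 bases in its longest transcript, was hardly moved.

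**Figure D2:**
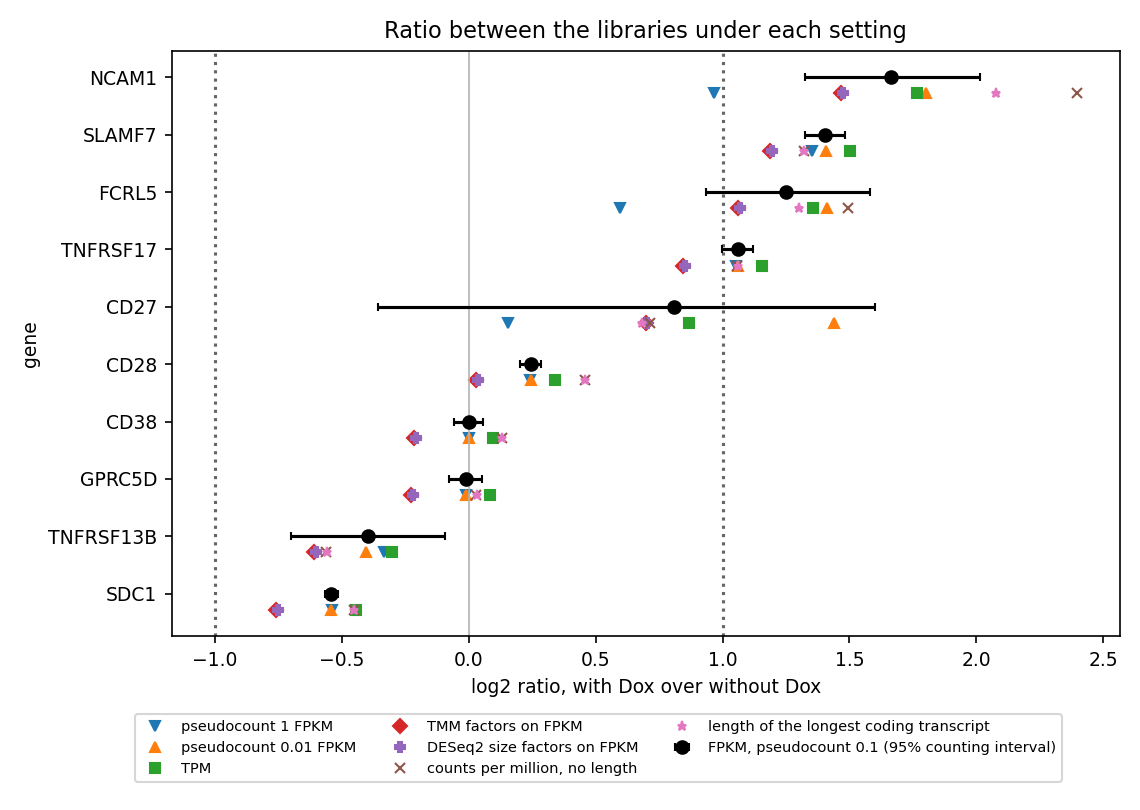
The log2 ratio of each surface antigen, with Dox over without Dox, as reported (black, with the 95% counting interval) and under 7 other settings (coloured symbols beneath), with dotted lines at 2-fold. SLAMF7 lies past the line in all of these settings, TNFRSF17 falls short of it with the 2 rescaled sets, and FCRL5 and NCAM1 fall short of it with a pseudocount of 1 FPKM.

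The partners of these receptors were examined in 15 lists of ligands, adaptors, processing enzymes and related surface genes, compiled by hand. Of their 117 genes, 76 reached 1 FPKM. With Dox, 11 of these exceeded 2-fold upward and 8 downward, a balance that turned to 7 upward and 12 downward with either the TMM or the DESeq2 factors. Of the 11, 5 (TRAF1, SDC3, FCRLA, CD70 and CD72) reached 1 FPKM only in the library where they were high, as did 2 of the 8 (ICOSLG and CD52). The 11 and 8 together were 25.0% of the tested partners, near the 23.4% of all tested genes past 2-fold in either direction. By direction, 14.5% of the tested partners were higher and 10.5% lower, beside 17.0% and 6.41% of all tested genes. The median was 0.01, beside 0.15 for all tested genes.

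Of the BCMA, BAFF and APRIL list, 7 of 9 genes were tested, with 1 higher, 0 lower and a median of 0.06. The ligand genes TNFSF13 (APRIL) and TNFSF13B (BAFF) stayed below 1 FPKM in both libraries. TRAF1, a signaling adaptor of TNF receptors, went from 0.57 to 2.12 FPKM (log2 ratio 1.73), a call lost with a pseudocount of 1 FPKM. TRAF2 and TRAF6 had ratios of -0.17 and 0.18. CAMLG, which binds TACI, was at 14.74 and 21.53 FPKM (0.54). The gamma-secretase complex cleaves BCMA from the cell surface, and 6 of its 6 genes were tested with 0 past 2-fold. PSENEN went from 70.77 to 114.28 FPKM (log2 ratio 0.69), while NCSTN and APH1A had ratios of 0.22 and -0.22.

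Of the SLAM family and its adaptors, 2 of 10 genes were tested and both were more than 2-fold higher. CD48, a lipid-anchored family member, went from 3557 counts and 84.57 FPKM to 8246 counts and 189.31 FPKM (log2 ratio 1.16, counting interval 1.10 to 1.22). LY9 (CD229) went from 138 counts and 2.07 FPKM to 393 counts and 4.95 FPKM (1.22, counting interval 0.95 to 1.50). With the TMM factors these ratios were 0.95 and 1.01, so CD48 fell below 2-fold. With a pseudocount of 1 FPKM it was LY9 that fell below 2-fold, while CD48 stayed past it. Each of the 2 genes thus lost its call in 1 of these settings. The adaptors SH2D1A and SH2D1B stayed below 1 FPKM in both libraries.

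CD48 and LY9 are the genes on either side of SLAMF7 in the SLAM cluster of chromosome 1. The 3 adjacent genes CD48, SLAMF7 and LY9 were thus more than 2-fold higher with the deposited FPKM, while the other 4 cluster genes, SLAMF6, CD84, SLAMF1 and CD244, had between 0 and 24 counts. Within 500 kb of SLAMF7, 23 other protein-coding genes were tested, 6 of them higher by more than 2-fold and 1 of them lower, TOMM40L at -1.22, with a median of 0.24. Around TNFRSF17, 8 were tested, of which 1 was higher, ZC3H7A at 1.29, and 0 were lower, with a median of -0.02. Over all tested genes, 17.0% were higher and 6.41% were lower by more than 2-fold. The 6 higher genes around SLAMF7 include CD48 and LY9 themselves, and also KLHDC9, which reached 1 FPKM only with Dox, where it was higher.

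Among the ectoenzymes of NAD and adenosine, 3 of 6 genes were tested, with 0 higher and 1 lower. ADA, the adenosine deaminase, went from 41.12 to 19.37 FPKM (log2 ratio -1.08), a call lost with TPM. NT5E (CD73), which makes adenosine, was at 3.54 and 5.63 FPKM (0.65), and ENTPD1 (CD39) at 1.51 and 0.90 FPKM (-0.69). The CD38 ligand PECAM1 did not reach 1 FPKM.

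Syndecan-1 carries heparan sulfate chains, and its related genes differed in both directions. Of the other syndecans and the binding protein SDCBP, 3 of 4 genes were tested, and SDC3 was more than 2-fold higher, at 0.69 and 1.67 FPKM (log2 ratio 1.16), but not with the TMM factors (0.97) or a pseudocount of 1 FPKM. Of 14 tested genes for heparan sulfate assembly, 1 was higher and 2 were lower, with a median of -0.14. The xylosyltransferases that start the chain went opposite ways, XYLT1 from 3.48 to 13.11 FPKM (1.88) and XYLT2 from 6.98 to 3.35 FPKM (-1.04). GLCE, the glucuronyl epimerase, went from 4.11 to 1.99 FPKM (-1.01), a ratio that was -0.60 on the CPM scale, without the length term. The calls of XYLT2 and GLCE were both lost with a pseudocount of 1 FPKM and with TPM. Of the genes for shedding and trimming, 6 of 7 were tested, with 1 higher and 1 lower. SULF1, a surface sulfatase of heparan sulfate, went from 32.04 to 76.03 FPKM (1.24), and the heparanase gene HPSE went from 5.99 to 2.37 FPKM (-1.30). The sheddase gene ADAM17 was at 47.50 and 66.85 FPKM (0.49).

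In the FCRL family, 2 of 7 genes were tested, with ratios of opposite sign. FCRLA, an intracellular relative, went from 15 counts and 0.24 FPKM to 163 counts and 1.78 FPKM (log2 ratio 2.47). FCRLB went from 295 counts and 3.93 FPKM to 151 counts and 1.84 FPKM (-1.05), a call lost with a pseudocount of 1 FPKM and with TPM. Of GPRC5A, GPRC5B and GPRC5C, the relatives of GPRC5D, 0 reached 1 FPKM.

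Among the partners of CD27 and CD28, 7 of 10 genes were tested, with 1 higher and 1 lower. CD70, the ligand of CD27, went from 9 counts and 0.39 FPKM to 72 counts and 2.97 FPKM, a log2 ratio of 2.65 (counting interval 1.77 to 3.52). ICOSLG, a ligand of the CD28 family, went from 1.55 to 0.62 FPKM (-1.20), a call lost with a pseudocount of 1 FPKM. The CD28 ligand genes CD80 and CD86 stayed below 1 FPKM in both libraries. Of the signaling partners, VAV1 was at 39.79 and 20.85 FPKM (-0.93, and past 2-fold at -1.14 with the TMM factors) and PIK3R1 at 9.33 and 15.99 FPKM (0.77).

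Of the NCAM partners, 4 of 5 genes were tested and 0 were past 2-fold. The polysialyltransferases that modify NCAM differed in sign, with ST8SIA2 at 15.16 and 10.30 FPKM (log2 ratio -0.55) and ST8SIA4 at 17.60 and 24.59 FPKM (0.48). The complement regulators, which limit lysis by antibodies, were all tested, and 0 of 3 were past 2-fold. CD59 went from 176.28 to 96.27 FPKM (-0.87), which the TMM factors took past 2-fold (-1.09), and CD46 and CD55 had ratios of 0.37 and 0.38.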

How the data were processed

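RNA of ARP1 cells was selected for poly(A) and sequenced as paired 150-base reads. For each library the authors deposited a gene table of expected counts, TPM and FPKM with mean transcript lengths. The submitters' processing notes name HISAT2 2.1.0, StringTie 1.3.4d, Bowtie 0.12.2 and hg19, but 202888 of the 204675 transcripts listed, with their versions, are in GENCODE release 29, from which GRCh38 coordinates were taken.

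Ratios were taken on the deposited FPKM, adding 0.1 to each, for genes reaching 1 FPKM in either library. The study used edgeR, which cannot estimate a dispersion from 1 library per condition, so no p-value was computed. Expected counts were rounded for exact binomial (ratios) and exact Poisson (levels) 95% intervals. edgeR 4.0.16 and DESeq2 1.42.0 in R 4.3.3 gave scaling factors only. Python 3.11.15, pandas 2.3.3, numpy 2.4.6, scipy 1.17.1 and matplotlib 3.10.9 were used. Only the ratios, their intervals and the 2-fold calls were tested on simulated data, with equal transcript lengths in both libraries.

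The members and lists were chosen with earlier results of these data known. Genes named were the 10 members, SRD5A1, cell type markers, up to 4 tested genes per list by absolute log2 ratio, and, among genes of the deposited GO term with at least 10 FPKM, the 5 highest and 5 lowest. Other list genes named for being below 1 FPKM, the overlapping and cluster genes, ZC3H7A, TOMM40L, the genes within 500 kb, the motifs and the fixed transcript length were chosen after values were seen. Alternatives covered pseudocount, filter, unit and scaling. Some genes that this rule names are not reported here.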

Additional observations from a re-analysis of the deposited data

How the results depend on the processing

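No paired analysis was possible because each condition had a single library, and for the same reason no replicate could be left out. Of the surface antigens, 4 were more than 2-fold higher, which became 2 with a pseudocount of 1 FPKM and 2 with a minimum of 5 FPKM (which FCRL5 and NCAM1 do not reach), and 0 were lower in every setting tried. With a pseudocount of 1 FPKM, 1606 genes in all and 6 partners were higher and 4 partners were lower. With TPM, 4 partners were lower. With the TMM factors, 1546 genes were lower, 7 partners higher and 12 lower, and with the DESeq2 size factors 1526 genes were lower, 7 partners higher and 12 lower, beside 11 and 8 partners as reported. With no filter on low values, 4735 genes were higher and 1897 lower. With a minimum of 5 FPKM, 1256 genes were higher and 603 lower, and 5 partners were higher and 4 lower. Depth limits CD27, with 2 and 7 counts.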

Other observations

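Other surface genes of B and plasma cells differed in both directions between the libraries. Of the B cell surface list, 6 of 14 genes were tested, with 1 higher and 1 lower by more than 2-fold with Dox. CD72 went from 22 counts and 0.77 FPKM to 78 counts and 1.85 FPKM (log2 ratio 1.16), and CD52, a small lipid-anchored protein and antibody target, from 30 counts and 2.90 FPKM to 3 counts and 0.28 FPKM. CD37 and CD81 had ratios of -0.96 and 0.70. With the TMM factors this list had 0 higher and 2 lower, CD72 being at 0.97 and CD37 at -1.15. The call of CD72 was also lost with a pseudocount of 1 FPKM. Of the other plasma cell surface genes, 13 of 16 were tested, with 2 higher and 1 lower. TFRC, the transferrin receptor that takes up iron, went from 181.12 to 42.43 FPKM (-2.09). IL6ST, the signaling chain of the interleukin-6 receptor, went from 26.72 to 67.03 FPKM (1.32), the insulin receptor gene INSR from 4.05 to 8.74 FPKM (1.09), and CD320 from 120.72 to 65.35 FPKM (-0.88). With the TMM factors this list had 1 higher and 2 lower, INSR being at 0.88 and CD320 at -1.10. The call of INSR was also lost with a pseudocount of 1 FPKM.

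The GO term external side of plasma membrane in the deposited tables held 332 genes, 5 of them among the 10 antigens. Of the 131 tested genes, 34 (26.0%) were higher by more than 2-fold and 14 (10.7%) lower, beside 17.0% and 6.41% of all tested genes, and the median of 0.15 equalled that of all tested genes to 2 decimals. The highest ratios among genes with at least 10 FPKM were those of TRPM8, a cold-sensing ion channel, from 1.46 to 27.79 FPKM (log2 ratio 4.16), IL11RA (2.68), HHLA2 (2.23), HEG1 (1.61) and the chemokine receptor gene CCR10 (1.58). Among the lowest were those of TFRC, HYAL2 (-1.57), BTN2A2 (-1.22) and CCR1 (-1.10). With the TMM factors 27 genes of the term were higher and 21 lower. Leaving out the antigens, 33 of 127 tested genes of the term were higher and 14 lower. Raising the minimum to 5 FPKM, at which fewer genes are tested, left 18 upward and 8 downward calls in the term. When 1 FPKM rather than 0.1 was added, 25 upward and 11 downward calls remained. How many genes of the term reached 1 FPKM only in the library where they were high is not given here.

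The genes around the other antigens were counted in the same way, within 500 kb, beside 17.0% higher and 6.41% lower over all tested genes. Around CD38, 4 protein-coding genes were tested, with 1 higher by more than 2-fold, 0 lower and a median of 0.73, beside the ratio of -0.00054 of CD38 itself. Around CD27, 27 were tested, with 4 higher, 5 lower and a median of -0.23. Around FCRL5 and NCAM1, 2 genes each were tested, with medians of -0.37 and -0.14 and 0 past 2-fold. Around SDC1, 7 were tested with 1 higher and a median of 0.25, around GPRC5D 10 with 2 higher, 1 lower and a median of 0.30, around TNFRSF13B 9 with 3 higher, 1 lower and a median of 0.36, and around CD28 5 with 0 past 2-fold and a median of 0.27. The 3 higher genes around TNFRSF13B (ZNF624, CCDC144A and NT5M) and ACRBP around CD27 reached 1 FPKM only with Dox, where they were higher. EMP1 around GPRC5D and RP5-940J5.10 around CD27 reached it only without Dox, where they were higher.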
